A study of Mus musculus with 3 samples.

Results

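Regions of open chromatin were examined at 35 genes that encode surface and junction proteins of endothelial cells, the cells that line blood and lymph vessels. The assay was ATAC-seq, which reads out DNA that a transposase can reach, and the 3 mouse libraries are labelled as mesenchymal stem cells. The study concerns heterotopic ossification, the growth of bone outside the skeleton. One group was taken before injury at day 0, one was immobilized and taken at day 7 after injury, and one was not immobilized and taken at day 7 after injury. Each group was 1 library, so differences could not be set against a spread between replicates, and none was tested. The sources used here do not give mouse strain, age and genotype, the injury, how cells were isolated or whether animals were pooled. Peak summits were widened by 250 bp on each side and touching windows of the 3 libraries were merged into regions. A region belonged to a gene if the nearest end of any protein-coding gene, within 50 kb, was an end of that gene. By this rule 34 of the 35 genes held 185 of the 51392 regions that lay within 50 kb of a gene end, and Mmrn1, which encodes the matrix protein multimerin 1, held none in any library.

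Endothelial cells are joined by adherens junctions built on VE-cadherin and by tight junctions built on claudin 5. Their growth and quiescence are set by receptor kinases for VEGF (Kdr, Flt1, Flt4) and for angiopoietins (Tek, with its partner Tie1). In vessels of inflamed or wounded tissue they also display selectins, which slow passing leukocytes. Factors of the ETS family, which bind a GGAA core, are known regulators of many of these genes. In bulk libraries, fewer cells of a type and less accessible DNA per cell cannot be told apart.

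The sequences before some of these gene starts are shown, chosen by the libraries in which a summit was called there and by summit rank. Promoters came from RefSeq (GRCm38.p6, the assembly of mm10), whose table held 21 annotated starts for 19 of the 35 genes. The 250 bases before the start are printed 5′ to 3′, with each ETS core (GGAA, or TTCC on the other strand) in capitals. The first 4 belong to starts at which only the non-immobilized library had a summit within 1 kb on lists of equal length. For Egfl7 this holds for the first of its 3 annotated starts.
She, chr3:89831120-89831369, plus strand: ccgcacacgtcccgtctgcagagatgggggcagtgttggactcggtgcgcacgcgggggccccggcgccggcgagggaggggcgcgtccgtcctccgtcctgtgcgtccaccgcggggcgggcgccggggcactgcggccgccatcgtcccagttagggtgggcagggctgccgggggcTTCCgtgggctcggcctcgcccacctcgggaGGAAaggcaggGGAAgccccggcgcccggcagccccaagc
Sele, chr1:164047984-164048233, plus strand: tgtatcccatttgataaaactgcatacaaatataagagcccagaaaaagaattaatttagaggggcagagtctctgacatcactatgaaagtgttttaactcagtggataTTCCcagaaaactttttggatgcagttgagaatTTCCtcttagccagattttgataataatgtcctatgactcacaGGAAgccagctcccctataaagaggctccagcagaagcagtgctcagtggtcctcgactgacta
Cldn5, chr16:18776597-18776846, plus strand: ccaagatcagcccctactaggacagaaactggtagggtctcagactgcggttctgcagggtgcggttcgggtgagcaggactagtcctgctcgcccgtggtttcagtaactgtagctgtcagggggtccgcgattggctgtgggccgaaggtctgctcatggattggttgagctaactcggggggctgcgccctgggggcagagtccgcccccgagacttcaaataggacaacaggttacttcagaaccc
Egfl7, chr2:26580833-26581082, plus strand: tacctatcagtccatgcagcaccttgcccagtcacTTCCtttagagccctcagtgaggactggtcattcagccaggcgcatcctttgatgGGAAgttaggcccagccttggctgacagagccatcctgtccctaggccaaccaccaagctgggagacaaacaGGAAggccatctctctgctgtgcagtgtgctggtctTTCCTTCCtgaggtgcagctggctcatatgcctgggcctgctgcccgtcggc
The next 2 had, among the other starts, the best-ranked summits of that library inside the window from 250 bases before to 50 after the start.
Tie1, chr4:118489850-118490099, minus strand: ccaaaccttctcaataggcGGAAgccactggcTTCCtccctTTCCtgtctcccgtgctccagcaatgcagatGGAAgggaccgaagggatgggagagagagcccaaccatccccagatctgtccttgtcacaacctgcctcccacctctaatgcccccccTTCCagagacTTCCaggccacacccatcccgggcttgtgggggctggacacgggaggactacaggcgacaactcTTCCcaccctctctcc
Kdr, chr5:75978456-75978705, minus strand: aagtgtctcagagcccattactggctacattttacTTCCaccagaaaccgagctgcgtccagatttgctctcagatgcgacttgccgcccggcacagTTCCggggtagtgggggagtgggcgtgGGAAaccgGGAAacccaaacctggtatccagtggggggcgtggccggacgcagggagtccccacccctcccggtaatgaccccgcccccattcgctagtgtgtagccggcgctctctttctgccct
The summit of the non-immobilized library lay 17 bases before the start of She, 109 before that of Cldn5, 141 before that of Egfl7, 76 before that of Tie1 and 9 before that of Kdr. At Sele it lay 46 bases after the annotated start, beyond the printed stretch and inside the gene, which RefSeq's gene table begins further upstream. At Egfl7 the summit was weak, at rank 96.0% of its list, and at She, Sele and Cldn5 the ranks were 50.6%, 60.2% and 80.5% (0% is the best-scoring summit of a list). She encodes an SH2 adaptor, Sele the selectin that activated endothelium displays, and Egfl7 a secreted factor of vessel growth.

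An ETS core was found in 20 of the 21 starts' 250 bases (95.2%) and in 93% of 20085 starts of autosomal protein-coding genes, so its presence alone tells the genes little apart. The median number was 4 at the endothelial starts and 3 at all starts. Cldn5 was the one endothelial start without the 4 letters, while Tie1 held 7 matches, Egfl7 5, Kdr 4, and Sele and She 3 each. The longer form CAGGAAG, read on both strands and containing the core, was found at 8 of 21 endothelial starts (38.1%) and at 10.3% of all starts. Egfl7 held 2 copies in the printed stretch and Sele 1. Its carriers were Calcrl, Cd34, Egfl7, Emcn, Rasip1, Robo4 and Sele. The SOX core ACAAT was found at 7 starts (33.3%, against 24.2% of all starts) and the TATA box TATAAA at those of Sele and Flt1 (9.52% against 11.7%). The GATA letters AGATAA, found at 8.72% of all starts, were in 0 of the 21 windows. These are matches of letters in a fixed window, and binding was not measured.

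The lists held 51722 summits at day 0, 67404 in the immobilized and 47912 in the non-immobilized library, and each was reduced to its 47912 best-scoring summits. Of the immobilized list 28.9% of summits were thereby left out, of the day 0 list 7.37%, and of the non-immobilized list none. Read pairs numbered 143818952 to 176119937 per library, with 60.2% duplicates at day 0 against 43.4% and 42.0% at day 7. Of the labelled cell type, 12 mesenchymal and fibroblast genes held 52 regions in the non-immobilized, 44 in the immobilized and 63 in the day 0 library, and 10 to 11 of the 12 had a region in each library. Ly6a, which encodes the progenitor marker Sca-1, had 0 regions in the non-immobilized and 2 in each other library. Genes of this list went both ways at day 7. Dpt had 4 regions that were non-immobilized only and 0 that were immobilized only, Col1a2 4 and 2, and Thy1 0 and 3. Blood and platelet genes held 13, 13 and 12 regions, with Itgam, Adgre1, Gp1ba and Ppbp at 0 in all 3 libraries. The other 7 of the 11 autosomal genes of that list had a region. Among them Spi1 had 4 regions called in both day 7 libraries and Ptprc 2. Genes of the labelled cell type thus held regions in every library, as did those of the other cell types counted and the endothelial genes described here.

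Summed over the 35 genes, endothelial regions on lists of equal length were most numerous in the non-immobilized day 7 library. It held 155 of the 185 regions, the immobilized library 100 and the day 0 library 76. Per 1000 regions near any gene these were 4.2, 2.67 and 2.1. The median gene had 4 regions in the non-immobilized, 3 in the immobilized and 1 in the day 0 library. By gene, 22 of the 35 peaked in the non-immobilized library (13.9% of all 15123 genes with a region did), 1 had most in the immobilized library (15.6% of all genes) and 2 had most at day 0 (15.8%). The counts fell in the order non-immobilized, immobilized, day 0 for 12 genes (3.43% of all genes). The order of the day 7 libraries rests on the list length: on the full deposited lists they held 154 and 161 endothelial regions and day 0 85, or 4.19, 3.23 and 2.21 per 1000 regions near any gene. There 9 genes peaked in the non-immobilized library (5.39% of all genes), 9 in the immobilized (35% of all genes) and 1 at day 0 (10.6%). Counts of different genes were not compared, since long genes and empty surroundings collect more regions. A region without a call is one where no summit passed, which does not show closed chromatin, and regions far outside a gene may belong to a neighbour.

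**Figure D1:**
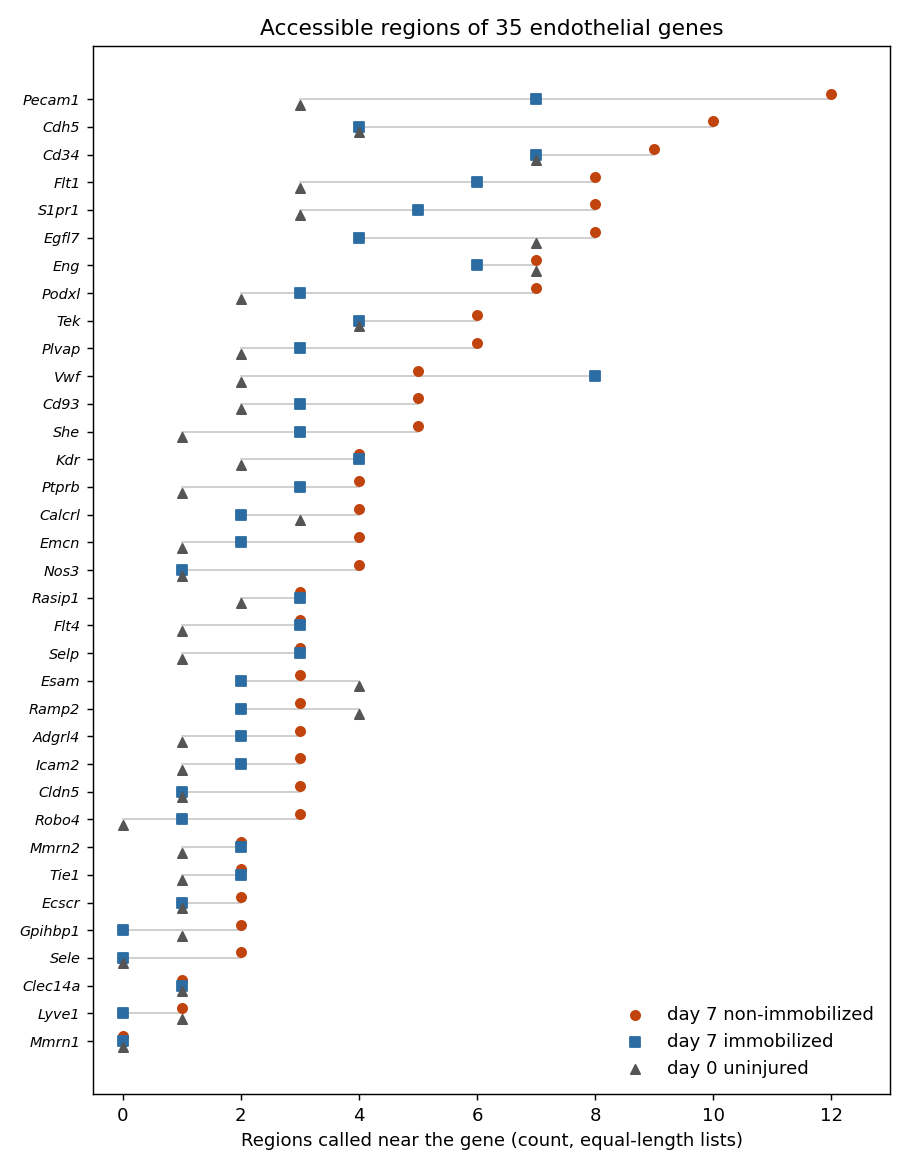
Regions called near each of the 35 genes (x axis, count on lists of equal length) in the 3 libraries, with 1 marker per library and a grey line from the lowest to the highest count. Pecam1 runs from 3 regions at day 0 to 12 in the non-immobilized library, and Vwf is the gene with most regions, 8, in the immobilized library.

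A smaller share of endothelial than of other regions was common to all libraries. Of the 185 regions, 51 (27.6%, exact 95% binomial interval 21.3 to 34.6) were called in all 3, against 48.5% of all regions near genes. The non-immobilized library alone held 63 (34.1%, 27.3 to 41.4), against 10.2% of all regions. On the full deposited lists it alone held 33 of 212 (15.57%), against 5.14% of all. Both day 7 libraries without day 0 held 34 (18.4%, against 8.30%). The immobilized library alone held 12 (6.49%, against 11.1%), day 0 alone 15 (8.11%, against 12.2%), non-immobilized with day 0 7 (3.78%, against 4.78%) and immobilized with day 0 3 (1.62%, against 4.98%). Intervals here cover counting error only, and neighbouring regions of a gene are not independent.

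The first comparison set the non-immobilized against the immobilized library at day 7, the contrast of immobilization after injury. On lists of equal length, both libraries shared 85 endothelial regions, while 70 lacked a call in the immobilized library and 15 lacked one in the non-immobilized library. Of the 170 regions, 41.2% were non-immobilized only, 8.82% immobilized only and 50% shared, where all regions near genes gave 17.1%, 18.3% and 64.6%. By gene, 26 of the 34 had more regions without immobilization (22.5% of all genes), 7 had equal numbers and 1 had more with it (24.5% of all genes). Of the regions called in just 1 of the 2 libraries, 82.4% (72.6 to 89.8) were in the non-immobilized one, against 48.3% of all. At least 2 more regions were counted in the non-immobilized library for 18 genes (6.2% of all genes) and in the immobilized library for 1, Vwf (7.11% of all genes). The median difference was 2 regions per endothelial gene and 0 over all genes. Shares of all genes are not matched for regions per gene: 34 endothelial genes held 185 regions, and 15123 genes held 51392.

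This direction rests on equal list lengths. Of the 70 regions, 35 (50%, against 46.1% of all such regions) held a weaker summit in the part of the immobilized list that had been left out. On the full deposited lists the non-immobilized library had 35 regions of its own and the immobilized library 42, a share of 45.5%. All regions gave 19.4% there, because the immobilized list is the longer one. Thus the raw counts turned towards the immobilized library, while the endothelial share was above that of all regions at both list lengths.

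Where both libraries had a call, ranks within the lists could be compared. At the 85 regions called in both day 7 libraries, 68 (80.0%, 69.9 to 87.9) had the better rank in the non-immobilized library, against 51.5% of all 29168 shared regions. A rank is the place of a region's best summit in its own list, from 0% (best) to 100%. The median rank was 37.3% in the non-immobilized and 54.8% in the immobilized library, while all shared regions had 34.4% in both. The median of the paired rank differences was 11.8 percentage points, against 0.19 for all regions. Among the 51 endothelial regions called in all 3 libraries, 31 (60.8%) ranked best in the non-immobilized library, 8 (15.7%) in the immobilized and 12 (23.5%) in the day 0 library. For all such regions the shares were 31.5%, 30.9% and 37.6%. The median ranks of the 51 were 33.4%, 40.7% and 46.0%, against 29.1% to 29.3% for all. By each gene's best region, 22 of the 30 genes called in every library ranked best in the non-immobilized library, 3 in the immobilized and 5 in the day 0 library (32.6%, 32.8% and 34.6% of all genes).

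**Figure D2:**
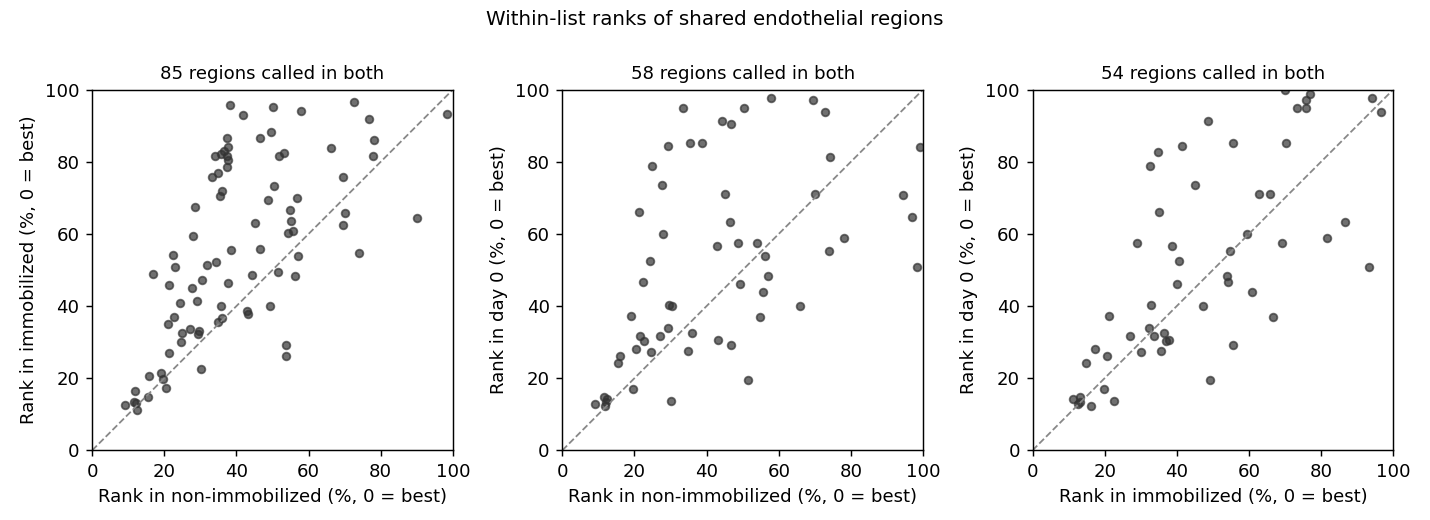
Within-list rank of each endothelial region called in both libraries of a pair, 0% being the best score, with 1 point per region and a dashed line of equal rank. In the left panel 68 of 85 points lie above the line, that is, with the better rank in the non-immobilized library; the other panels show 39 of 58 and 33 of 54 above it.

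Against day 0 the non-immobilized library held more regions at 29 of 34 genes (26.1% of all genes), fewer at 2, Esam and Ramp2 (24.3%), and equal numbers at 3. Only at day 7 non-immobilized were 97 endothelial regions called, only at day 0 18, and in both 58. These make 56.1%, 10.4% and 33.5% of the 173 regions, where all regions gave 20.8%, 19.3% and 59.9%. Of the regions in just 1 library, 84.3% (76.4 to 90.5) were in the non-immobilized one, against 51.9% of all. At least 2 more regions were counted there for 22 genes (8.57% of all genes) and at day 0 for 0 genes (7.62%). Of the 97 regions, 5 held a weaker day 0 summit below the shared list length and 92 had no day 0 summit in the deposited list. The full deposited lists gave 92 and 23, a share of 80.0% against 45.7% of all regions. Among the 97, 30 (30.9%) ranked in the better 50% of the non-immobilized list, against 19.4% of all such regions. Of the 18 day 0 regions 1 (5.56%) did in its list, against 11.9% of all such regions. At shared regions 39 of 58 (67.2%, 53.7 to 79.0) ranked better in the non-immobilized library, against 48% of all.

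On lists of equal length the immobilized library alone held 46 regions, day 0 alone 22, and both held 54 (37.7%, 18.03% and 44.3% of 122, against 21.6%, 18.9% and 59.5% of all regions). Its share of the regions called in just 1 library was 67.6% (55.2 to 78.5), against 53.4% of all. At least 2 more regions were counted in it for 9 genes (9.48% of all genes) and at day 0 for 3 genes (7.31%), namely Egfl7, Esam and Ramp2. Over the 33 genes with a region in either library, 19 had more in the immobilized library (27.2% of all genes), 7 had more at day 0 (23.1%) and 7 had equal numbers. At shared regions 33 of 54 (61.1%, 46.9 to 74.1) ranked better in the immobilized library, against 47.3% of all. The full deposited lists turned these into 94 and 18 regions, a share of 83.9% against 73.1% of all, and into 19 genes with at least 2 more regions in the immobilized library (21.64% of all genes). For the non-immobilized library against day 0 they gave 20 such genes (6.88% of all genes), so by raw counts both day 7 libraries then differed from day 0 by similar numbers. The comparisons share libraries, so they are not independent of each other.

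**Figure D3:**
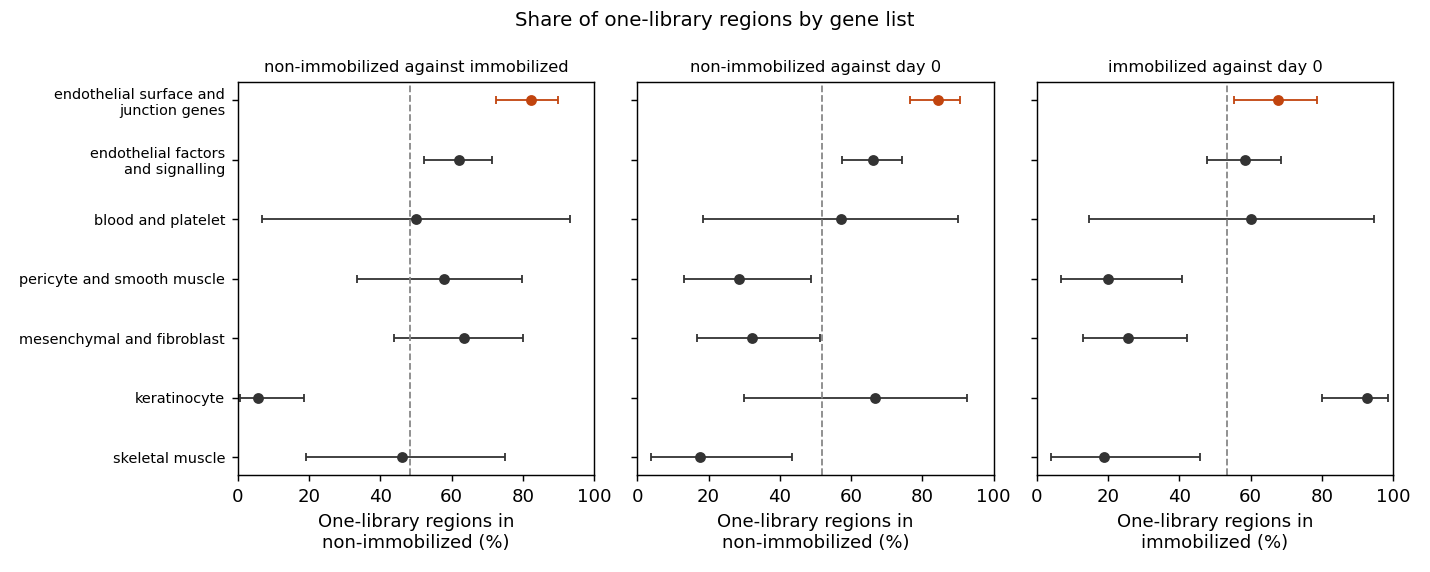
Share of the regions called in just 1 library of a pair that fell in the first-named library (x axis, percent), by gene list, with exact 95% binomial intervals; the dashed line is the share over all regions near genes. The endothelial surface and junction genes (top) stand at 82.4%, 84.3% and 67.6%, and the keratinocyte genes at 5.56%, 66.7% and 92.7%.

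Junction and adhesion genes held 34 regions in the non-immobilized, 19 in the immobilized and 15 in the day 0 library. Cdh5, which encodes VE-cadherin (mm10 chromosome 8, 104101613 to 104144504), had 10, 4 and 4 in that order. On the full deposited lists it had 10, 7 and 4. Its strongest region in the non-immobilized library lay inside the gene, 20.4 kb from the nearer end, at rank 22.9%, against 51.0% in the immobilized library and no call at day 0. A second intragenic region, 9.20 kb from that end, ranked 37.5% and 86.5% in the day 7 libraries. The strongest Cdh5 region at day 0 lay elsewhere, 24.6 kb outside the gene, at rank 19.4% there and 51.5% and 49.3% in the non-immobilized and immobilized libraries. So the distant region was strongest before injury, while no region inside the gene was called at day 0. Apart from the intragenic regions described here, those inside the gene were called in the non-immobilized library alone.

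Pecam1, which encodes the junctional and platelet protein CD31 (chromosome 11, 106654213 to 106715281), had 12, 7 and 3 regions. On the full deposited lists it had 12, 10 and 3. An intragenic region 20.5 kb from the nearer end ranked 19.6% in the non-immobilized, 19.8% in the immobilized and 17.1% in the day 0 library, close to equal. A region 36 bp from a gene end was called in the non-immobilized library alone, at rank 47.6%. Outside the gene, 5.58 kb from the other end, a region ranked 26.03% in the immobilized and 53.9% in the non-immobilized library. Of its 13 regions, 3 were in all libraries, 3 in both day 7 libraries, 6 in the non-immobilized and 1 in the immobilized library alone, and 0 were at day 0 alone.

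Cldn5, which encodes the tight junction protein claudin 5 (chromosome 16, 18776847 to 18778262), had 3, 1 and 1 regions. Both of its regions at the gene were called in the non-immobilized library alone, at ranks 80.5% and 63.3%, and the region in all 3 lay 43.5 kb away. Weaker immobilized summits lay at both, at 126% and 108% of the equal list length, that is, beyond it. Icam2, a ligand of leukocyte integrins, had 3, 2 and 1 regions, Esam, an adhesion molecule of endothelium and platelets, 3, 2 and 4, and Rasip1, a RAS-binding regulator of vessel lumens, 3, 3 and 2. Esam was higher at day 0 by count, in contrast to the other junction genes, and ranked 29.3% there at its gene end, against 46.6% and 55.7% in the day 7 libraries.

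**Figure D4:**
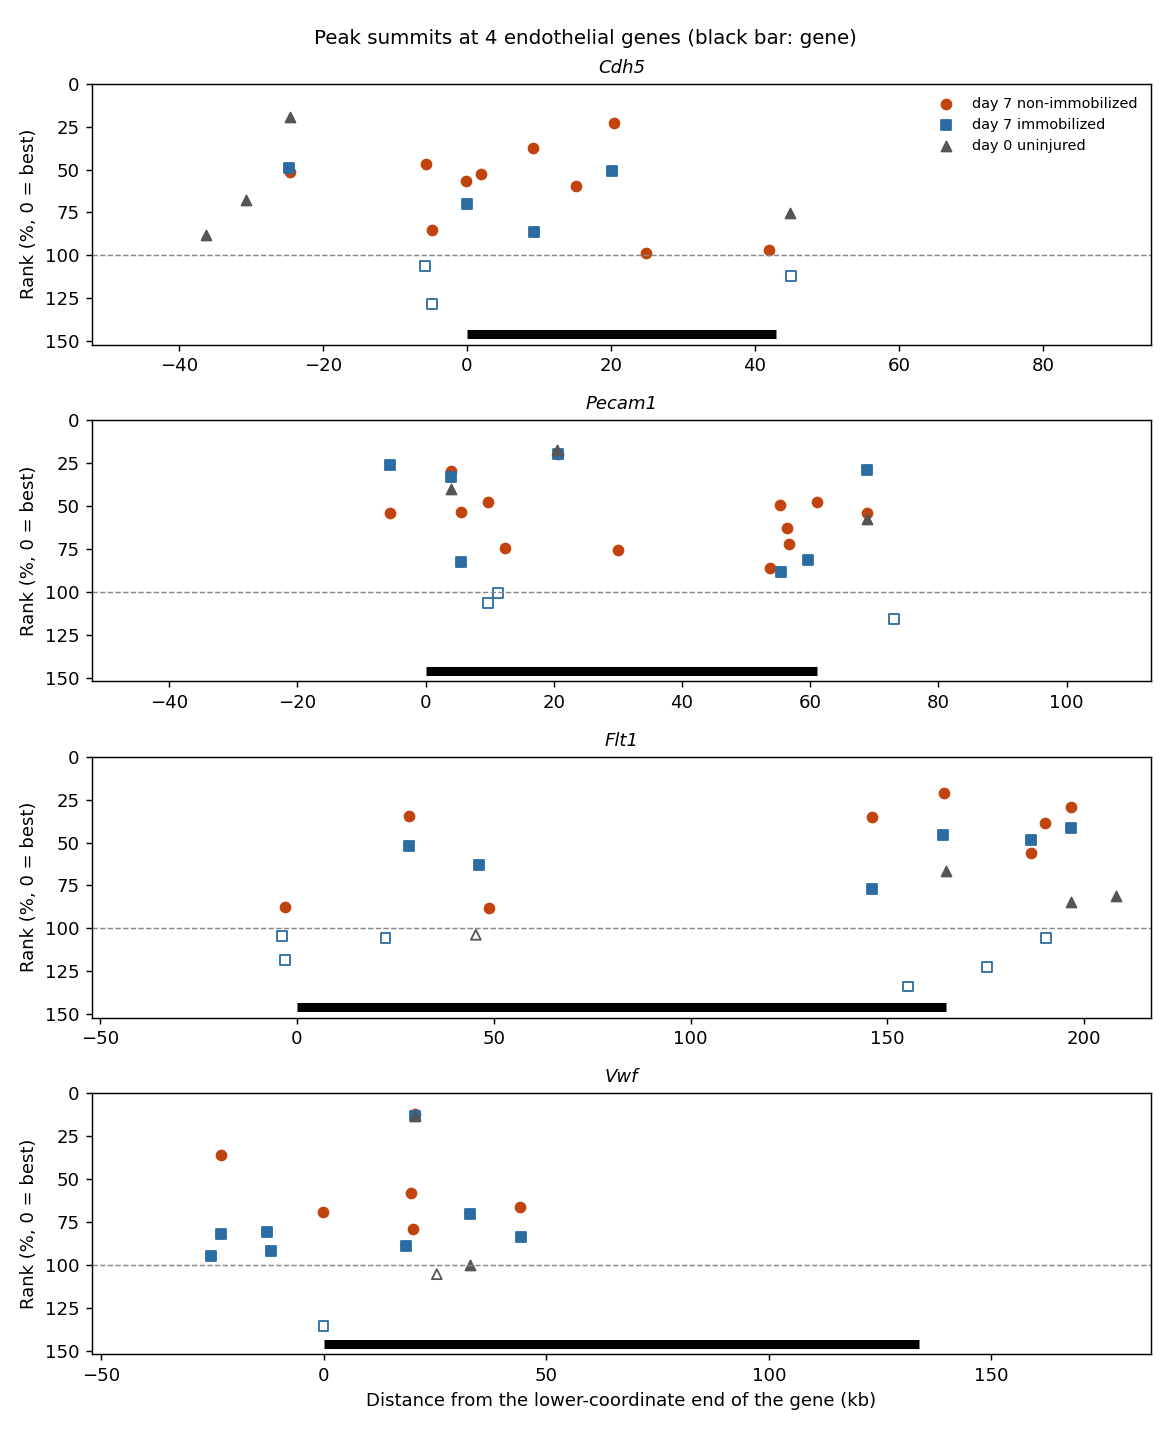
Summits assigned to Cdh5, Pecam1, Flt1 and Vwf by distance from the lower-coordinate end of the gene (x axis, kb) and rank in percent of the equal list length (y axis, best at the top); open symbols beyond the dashed line at 100% are deposited summits left out of the equal lists. At Cdh5 the non-immobilized summits reach 22.9% inside the gene and the day 0 summits 19.4% outside it.

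The receptor kinases and the phosphatase gene Ptprb held 27, 22 and 12 regions. All 6 exceeded their day 0 count in the non-immobilized library (26.1% of all genes). Kdr, which encodes the main VEGF receptor (chromosome 5, 75932827 to 75979072), had 4, 4 and 2 regions, and 4, 6 and 2 on full deposited lists. Its start, the sequence of which is printed above, ranked 22.3% in the non-immobilized, 54.3% in the immobilized and 46.6% in the day 0 library. A region 34.9 kb outside Kdr was called in the non-immobilized library alone, at rank 34.5%, with no deposited summit in either other list. Among all endothelial regions called in that library alone it had the best rank.

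Flt1, which encodes the decoy VEGF receptor (chromosome 5, 147561604 to 147726438), had 8, 6 and 3 regions. Within 1 kb of its start the ranks were 21.2%, 45.8% and 66.7%. Of its regions, 4 were called in both day 7 libraries without day 0, and in 3 of these the non-immobilized rank was the better. On the full deposited lists Flt1 had 8 regions in the non-immobilized and 12 in the immobilized library, which turned the count around. Flt4, the VEGF receptor of lymphatic vessels, had 3, 3 and 1 regions, and its start ranked 37.3% and 78.5% at day 7 with no call at day 0.

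Tie1, which encodes an orphan partner of the angiopoietin receptor (chromosome 4, 118471191 to 118489849), had 2, 2 and 1 regions. Its start ranked 16.9% in the non-immobilized and 48.9% in the immobilized library, with no deposited summit at day 0. This was the best rank of any endothelial region not called in all 3 libraries. Tek, the angiopoietin receptor itself, had 6, 4 and 4 regions, and its best region ranked alike in all libraries, 11.6%, 13.3% and 14.8%. Its start ranked best at day 0, 43.9% against 55.6% and 60.9%. Ptprb, the phosphatase that restrains Tek, had 4, 3 and 1 regions (4, 6 and 1 on full deposited lists), and the single region it had at day 0 ranked 93.9%. Tek and Tie1 therefore differed: the kinase start of Tie1 was called after injury only, that of Tek in every library.

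Surface glycoprotein genes held 44, 27 and 23 regions. At day 7, 8 of the 9 had a higher count without immobilization than with it (22.5% of all genes). Podxl, which encodes the sialomucin podocalyxin (chromosome 6, 31519493 to 31563937), had 7, 3 and 2 regions, 4 of them in the non-immobilized library alone. Emcn, which encodes endomucin, a marker of capillaries and veins (chromosome 3, 137341062 to 137431069), had 4, 2 and 1. Its start was called in the non-immobilized library alone, at rank 81.4%, and 18.6 kb outside the gene a region ranked 28.4% and 67.3% at day 7. The single Emcn region of day 0 lay 49.1 kb from the gene, where no day 7 summit was called.

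Plvap, a component of the diaphragms of fenestrated vessels, had 6, 3 and 2 regions. Robo4, a guidance receptor that stabilizes vessels, had 3, 1 and 0, and its start ranked 50.2% and 95.2% at day 7. Cd93, a C-type lectin receptor, had 5, 3 and 2, which full deposited lists turned to 5, 9 and 3, and at its gene end it ranked 37.6% and 84.0% at day 7 with no call at day 0. Ecscr, a regulator of endothelial motility, had 2, 1 and 1. Robo4 was the one surface gene without any region at day 0.

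Some surface genes differed little. Cd34, shared by endothelium and fibroblast progenitors, had 9, 7 and 7 regions, of which 6 were in all libraries. Its start ranked 15.9%, 20.7% and 26.3% in the non-immobilized, immobilized and day 0 libraries, and its best region 9.03%, 12.6% and 12.9%. Eng, which encodes the TGF-beta coreceptor endoglin that mesenchymal cells also carry, had 7, 6 and 7 regions. An intragenic Eng region, 15.3 kb from the nearer end, nonetheless ranked 21.2%, 34.95% and 66.1%, and its start 38.6%, 55.6% and 85.2%. Clec14a, a lectin of growing vessels, had 1 region in each library, at ranks of 24.6%, 30.1% and 27.2%. For Eng the count was level while the ranks were best in the non-immobilized library. The count depended on the assignment. With regions inside a gene given to that gene, Eng had 3 regions without an immobilized call at day 7 and 0 without a non-immobilized call.

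Matrix and secreted partners held 15, 14 and 10 regions, with 7 non-immobilized only and 6 immobilized only at day 7. Egfl7 (chromosome 2, 26581083 to 26592682) had 8, 4 and 7 regions. Of these, 4 were called in the non-immobilized library alone and 3 at day 0 alone, and the immobilized library had fewest. Unreduced lists gave Egfl7 8, 8 and 7 regions. Vwf, which encodes the clotting protein von Willebrand factor (chromosome 6, 125552948 to 125686679), had 5, 8 and 2 regions. Its 4 regions in the immobilized library alone ranked 80.91% to 94.98%, and its best region ranked 12.1%, 13.1% and 13.3%. The region 87 bp from its gene end was called in the non-immobilized library alone, at 69.3%. An immobilized summit lay there beyond the equal list length, at 136%. Another region, 32.8 kb inside the gene, ranked 70.1% in the immobilized library and 100% at day 0, without a non-immobilized call. So the regions behind the lean of Vwf ranked 70.1% to 94.98% in the immobilized library and lay away from that end. On the full deposited lists Vwf had 5, 9 and 3 regions. Mmrn2, a multimerin of the vessel wall, had 2, 2 and 1 regions.

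G protein-coupled receptors and their partner held 18, 11 and 11 regions. S1pr1, which encodes the sphingosine 1-phosphate receptor that tightens junctions (chromosome 3, 115710433 to 115715055), had 8, 5 and 3 regions. The region at its gene end ranked 21.4%, 27.0% and 31.8%, and a region 43.5 kb outside ranked 37.7% and 80.6% at day 7 with no call at day 0. Calcrl, the receptor for adrenomedullin, had 4, 2 and 3 regions (3, 4 and 3 on full deposited lists, turning the day 7 order), and its start ranked best at day 0, 27.5% against 34.8% and 35.5%. Ramp2, the partner of Calcrl, had 3, 2 and 4, and Adgrl4, an adhesion receptor of sprouting vessels, 3, 2 and 1. At its start Adgrl4 ranked 33.4%, 75.8% and 94.8%. The region at the end of Ramp2 ranked 19.2%, 21.3% and 37.2%, the order seen at the gene end of S1pr1.

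Genes of activation, transport and vessel subtype held 17, 7 and 5 regions. Sele (chromosome 1, 164039614 to 164058487) had 2, 0 and 0, at ranks of 60.2% and 64.2% in the non-immobilized library, and neither other deposited list had a summit there. Selp, the selectin stored with von Willebrand factor, had 3, 3 and 1, and its start ranked 34.0% and 81.6% at day 7, with a day 0 summit at 106% of the equal list length. Both selectin starts thus had their best rank in the non-immobilized library, and Sele was the 1 gene with regions in that library and in neither other. Nos3, which encodes endothelial nitric oxide synthase (chromosome 5, 24364816 to 24384474), had 4, 1 and 1 regions, 3 of them in the non-immobilized library alone. At all 3 the immobilized list held summits beyond the equal length, at 116% to 133%. With regions inside a gene given to that gene, Nos3 kept 1 region without an immobilized call at day 7.

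She had 5, 3 and 1 regions, of which 4 were in the non-immobilized library alone. At 3 of these 4 the immobilized list held summits beyond the equal length, at 105% to 120%, and on the full deposited lists She had 5, 9 and 1 regions, which turned the day 7 count around. Its region in all 3 libraries, 2.50 kb outside the gene, ranked 15.5%, 14.9% and 24.3%. Gpihbp1, which holds lipoprotein lipase on capillaries, had 2, 0 and 1, and Lyve1, the hyaluronan receptor of lymphatic vessels, 1, 0 and 1 on equal lists. The full immobilized list had 2 regions at each of these genes, so their 0 rests on the list length.

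At annotated starts the same order was seen. Of the 19 genes with a start in the RefSeq table, 17 (89.5%) had a summit within 1 kb in the non-immobilized library, 12 (63.2%) in the immobilized and 9 (47.4%) in the day 0 library, on lists of equal length. Over all 16457 genes with a start these shares were 61.5%, 61.4% and 60.2%. The full deposited lists gave 17, 15 and 10 endothelial genes. The gap between the day 7 ranks was widest at Selp (34.0% and 81.6%), Robo4, Adgrl4 and Flt4, and Calcrl was nearly level. Of the 8 genes called at the start in all 3 libraries, 6 ranked best in the non-immobilized library, 2 (Calcrl and Tek) at day 0 and 0 in the immobilized library. Over all genes called in all 3 these shares were 34.5%, 31.6% and 33.9%. The median endothelial start ranked 37.3%, 55.0% and 46.6% where called, weaker than the 12.4% to 12.6% of all genes.

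**Figure D5:**
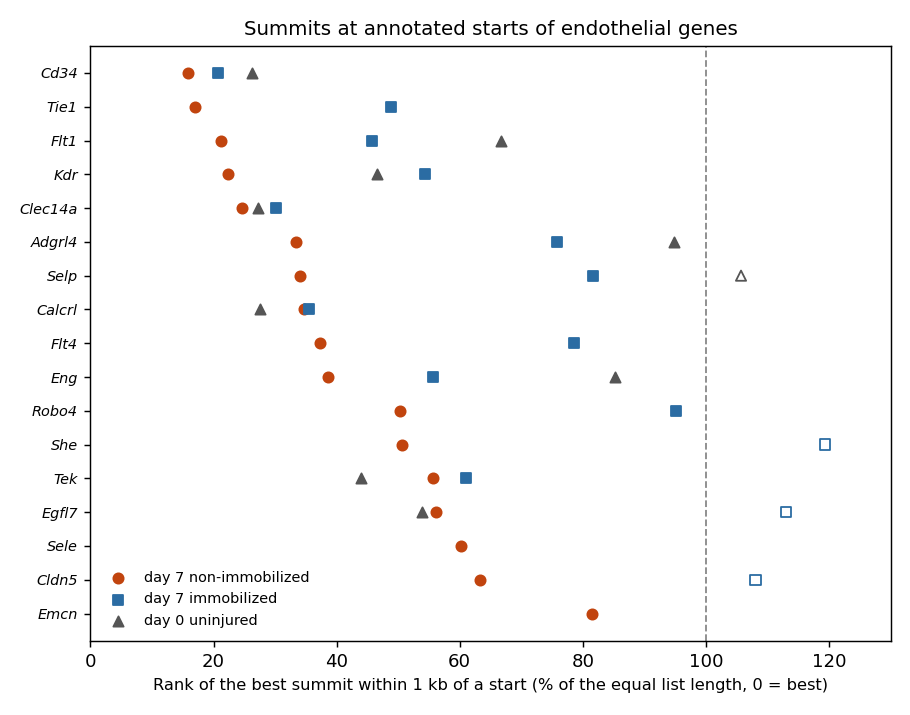
Rank of the best summit within 1 kb of an annotated start, in percent of the equal list length (x axis, 0% best), for the 17 endothelial genes with such a summit; open symbols right of the dashed line were left out of the equal lists. The non-immobilized markers lie between 15.9% and 81.4%, and those of day 0 are missing for 7 genes.

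Endothelial regions called in the non-immobilized library alone lay, by median distance, closer to gene ends than all regions of that library alone. Of these 63 regions, 13 (20.6%) were within 1 kb of a gene end, 27 (42.9%) further inside the gene and 23 (36.5%) outside it. Over all regions of that library alone the shares were 14.7%, 47.1% and 38.3%. Their median distance to the gene end was 4.86 kb, against 10.4 kb for all such regions. Of the 12 endothelial regions in the immobilized library alone, 0 were within 1 kb of an end (10.2% of all such regions), and the median distance was 13.3 kb. Within 10 kb of a gene end, the day 7 libraries differed by 44 regions without an immobilized call and 4 without a non-immobilized call, a share of 91.67% against 49.64% of all regions.

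The 10 best-ranked regions that were not called in all 3 libraries belonged to 9 genes. Of these, 8 were called in both day 7 libraries and not at day 0, at Tie1, Flt1 (2 regions), Cdh5, Pecam1, Emcn, Adgrl4 and Selp. In 7 of the 8 the better rank was in the non-immobilized library, the exception being the Pecam1 region already described. These 8 belong to the 85 regions shared at day 7. Of those 85, 68 ranked better in the non-immobilized library, against 51.5% of all shared regions. The ninth was the Kdr region of the non-immobilized library alone. The tenth, 3.37 kb outside Eng, ranked 34.8% in the immobilized library and 82.6% at day 0 and was not called in the non-immobilized one. It no longer counted for Eng when regions inside a gene were given to the gene that held them. Day 0 did have a summit at rank 66.7% in the region next to that at the start of Flt1, and one beyond the equal list length at Selp.

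Related endothelial transcription factors and signalling genes, a list of 36 with none of the 35 genes above, were counted in the same way. At day 7 the non-immobilized library had 67 of their regions to itself and the immobilized library 41 (62.04%, 52.2 to 71.2, against 48.3% of all regions). Against day 0 the non-immobilized library alone had 86 and day 0 44 (66.2%, 57.3 to 74.2, against 51.9%), and the immobilized library alone 55 and day 0 39 (58.5%, 47.9 to 68.6). The last interval includes the 53.4% of all regions. At least 2 more regions were counted in the non-immobilized than in the immobilized library for 11 of them (6.2% of all genes). The reverse held for 7 (7.11% of all genes). In this list 35 genes held 261 regions, where 15123 genes held 51392 in all. Genes with more regions reach a difference of 2 more easily in either direction, so these shares are not a matched baseline. Erg, an ETS factor of endothelial identity, had 5 regions that were non-immobilized only, 1 that was immobilized only and 5 shared ones. Fli1, its close relative, had 5, 1 and 2, and Elk3 4, 0 and 10. Nrp2, a coreceptor of lymphatic VEGF signals, went the other way with 3, 7 and 4. Dll4, the Notch ligand of sprouting tip cells, had 6 regions that were absent at day 0, 2 shared with it and 0 at day 0 alone.

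Gene lists of other cell types moved in several directions between the same libraries. In the day 7 comparison, 12 keratinocyte genes had 34 regions that were immobilized only and 2 that were non-immobilized only (5.56%, 0.68 to 18.7), and all 12 had a region in the immobilized library. Their regions numbered 15, 47 and 12 in the non-immobilized, immobilized and day 0 libraries. Pericyte and smooth muscle genes, whose cells wrap vessels, had 46, 43 and 58 regions, with 8 that day 0 lacked and 20 that the non-immobilized library lacked (28.6%, 13.2 to 48.7). Mesenchymal genes had 10 and 21 in that comparison (32.3%, 16.7 to 51.4) and skeletal muscle genes 3 and 14 (17.6%, 3.80 to 43.4). Between day 0 and the non-immobilized library these 3 lists thus ran against the endothelial genes. At day 7 the mesenchymal genes had 19 regions that were non-immobilized only and 11 that were immobilized only (63.33%, 43.9 to 80.1), the pericyte and smooth muscle genes 11 and 8 (57.89%) and the skeletal muscle genes 6 and 7 (46.15%), against 48.3% of all regions. By estimated aligned pairs without duplicates, the non-immobilized library was also the deepest (90136518) and day 0 the shallowest (63640194). List length was varied: the endothelial day 7 share was 82.4% on equal lists and 45.5% on the full deposited lists. All regions gave 48.3% and 19.4%. The part of depth or the make-up of the cells in the endothelial counts was not tested.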

How the data were processed

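The data are 3 ATAC-seq libraries, 1 per group, made with Omni-ATAC, as the labels' protocols state. Tools named in the submitters' processing notes, without role or order, are MACS2 2.1.2, Bowtie2 2.3.4.1, SAMtools 1.2, edgeR 3.26.5, bedtools 2.28.0, Picard, cutadapt, Trim Galore and FastQC, with build mm10. Read shift, filters and peak threshold are not stated. Each library's summits were called by the authors on its own and deposited with a −log10 p or q score, a unit read from the MACS2 layout; here it served to order summits. The deposited table of run statistics has read counts, a duplicate fraction and an alignment percent, per the file headers.

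Lists were shortened to the best 47912 summits, the length of the shortest, and regions and genes were formed as described in the report. Gene ends, strands and promoters came from RefSeq GRCm38.p6, on 19 autosomes. Estimated pairs are trimmed pairs times alignment rate times the share not duplicated. Intervals are exact (Clopper-Pearson, 95%). The genes and lists were chosen with earlier results of these data known. All 35 genes were named, with the 10 best-ranked regions not called in all 3 libraries and, per other list and comparison, genes among the 4 largest differences; genes listed at 0 were named after their values were seen. Region building and gene assignment were tested on simulated data. Alternatives changed list length, window, distance, assignment, the leading gene and the definition of absence; those for ranks, patterns and the library with most regions were added after the data were seen. Versions were matplotlib 3.10.9, scipy 1.17.1, pandas 2.3.3, numpy 2.4.6 and Python 3.11.15.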

Additional observations from a re-analysis of the deposited data

Results flagged for a closer look

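Against day 0, 3 genes went in opposite directions in the 2 day 7 libraries; the difference was not tested, and both comparisons share the day 0 library. Egfl7 had a difference of 1 region in the non-immobilized and -3 in the immobilized library. Gpihbp1 had 1 and -1, and Calcrl, the adrenomedullin receptor, also had 1 and -1. With the lists as deposited the immobilized difference was 1 for each of the 3 genes.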

How the results depend on the processing

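No paired analysis was possible because each group has 1 library. The share of endothelial regions in the non-immobilized against the immobilized library was 82.4%; it was 45.45% with the lists as deposited (reversed, all regions 19.4%), 91.67% within 10 kb (all regions 49.64%) and 66.67% (2 against 1 regions) for regions that made the best 23956 summits in a library and had no summit at all in its partner (all regions 35.2%). The last definition gave 96.55% (28 against 1, all regions 61.76%) for the non-immobilized library against day 0 and 83.33% (5 against 1, all regions 72.73%) for the immobilized library against day 0, where deposited lists gave 83.93% (all regions 73.1%). The other 24 of 30 values of these shares stayed inside the exact interval of the reported one, and all 21 rank shares did. The share of regions in the non-immobilized library alone was 15.57% with deposited lists (all regions 5.14%) and 43.04% with the best 23956 summits (8.77%).

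Counts of genes with at least 2 more regions moved with the setting, for all genes too. More in non-immobilized than immobilized were 18, and 7 with deposited lists (1% of all genes), 9 with the best 23956 summits (3.08%) and 0 with the strict definition of absence (0.03%); the reverse, 1, became 6 (22.46%), 0 (2.69%) and 0 (0.25%), and 0 within 10 kb (2.76%). More in non-immobilized than at day 0 were 22, and 11 with the best 23956 summits (4.11%), 13 within 10 kb (3.86%) and 6 with the strict definition (1.11%); the reverse, 0, became 1 with deposited lists, with summits widened by 500 bp on each side and beyond 1 kb of gene ends (9.88%, 6.5% and 9.92%). More in immobilized than at day 0 were 9, and 19 with deposited lists (21.64%), 4 with the best 23956 summits (3.58%), 3 within 10 kb (4.18%) and 1 with the strict definition (0.91%); the reverse, 3, became 1 (2.8%), 0 (3.28%) and 0 (0.07%) in the first, second and last of these. With deposited lists the day 7 differences of Flt1, Cd93 and She were -4 each and that of Calcrl -1, and Egfl7 had 1 against day 0 in the immobilized library. Vwf had 1 at day 7 with the best 23956 summits and within 10 kb. With the best 23956 summits Tek had -1 (non-immobilized against day 0) and S1pr1 -1 (immobilized against day 0, also with the strict definition). Beyond those set by fewer or more summits, the cause was not tested.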
